A study of Oryza sativa with 10 samples.

Results

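Broad open sites of the rice genome were taken from ATAC-seq peak lists, in which the Tn5 transposase had cut accessible chromatin and each peak marks a stretch with more cuts than its surroundings. Peaks of all 10 lists that overlapped by at least 1 bp were merged into sites, and a site was called broad when its merged width lay from 800 to 3000 bp. Of 33382 sites, 650 (1.95%) were broad. They held 0.688 Mb of the 9.51 Mb in all sites (7.24%). The 10 lists fell into 5 groups with 2 lists each, from whole seedlings of the indica rice cultivar YD6 that had germinated in darkness: seedlings treated with abscisic acid (ABA), seedlings treated with the auxin indole-3-acetic acid (IAA), and seedlings without hormone in the dark (0 h), after 8 h of light and after 24 h of light. According to the methods of the study, both hormones were sprayed shortly before the 24 h sample was taken, so they were set against 24 h of light. A solvent spray was not analysed here, so hormone and spraying cannot be told apart.

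Open chromatin in plants lies mainly at promoters and at distal elements, where transcription factors take the place of nucleosomes. A short open site is usually a single nucleosome-free stretch, whereas a broad one can hold a run of factor-bound elements with nucleosomes left between them. The move of a seedling from dark to light, called de-etiolation or photomorphogenesis, replaces a programme of elongation by one of chloroplast building, and ABA (a stress and dormancy hormone) and auxin (a growth hormone) both act through transcription factors that bind such elements.

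The lists held 12659 to 25302 peaks, with the fewest in the ABA lists (13278 and 12659) and the most in the dark lists (24150 and 25302). Depth is known only as a relative library size, the scale of the local background that the peak caller set against each list. It ranged from 0.517 in a dark list to 0.929 in an ABA list, so the shortest lists had the largest libraries. The labels number the 2 lists of a group as replicates, and the paper states 2 biological replicates. The 2 lists were nonetheless far closer to each other than lists of different groups were. At broad sites, the heights of shared single peaks differed by a chi-square per site of 0.00951 to 0.0685 within groups. Between lists of different groups it was 0.503 to 1.92. Independent counts would give about 1, but pairs of different groups also fell below 1, so this is no exact reference for summit heights. The summits fell on the same base at 37.0% to 75.8% of these peaks within groups and at 1.25% to 4.19% between groups. The 2 lists were therefore counted as 1 sample per group, both values are shown, and no test between groups was possible. All differences below compare single samples, with no replicate check.

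The width of broad sites is what chose them and is given as a description. The median was 963 bp (quartiles 863 and 1145 bp), the widest site reached 2952 bp, and the other 32732 sites had a median of 228 bp. Between 800 and 1000 bp there were 371 sites, from 1000 to 1500 bp there were 235, from 1500 to 2000 bp there were 31, and 13 were wider. The limits cut through a continuous range. Just inside the lower limit, chr10:11040498-11041297 and chr6:1605071-1605870 were 800 bp wide, with 595 to 792 bp and 373 to 707 bp covered by peaks in single lists. Just outside it, chr3:4571246-4572044 and chr3:5988738-5989536 were 799 bp wide, with 485 to 669 bp and 617 to 779 bp covered. At the upper limit, the widest members of 2952 and 2910 bp stood beside excluded sites of 3002 and 3197 bp, and 22 sites in all were wider than 3000 bp. All coordinates are of the MSU7.0 rice genome, counted from 1.

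**Figure D1:**
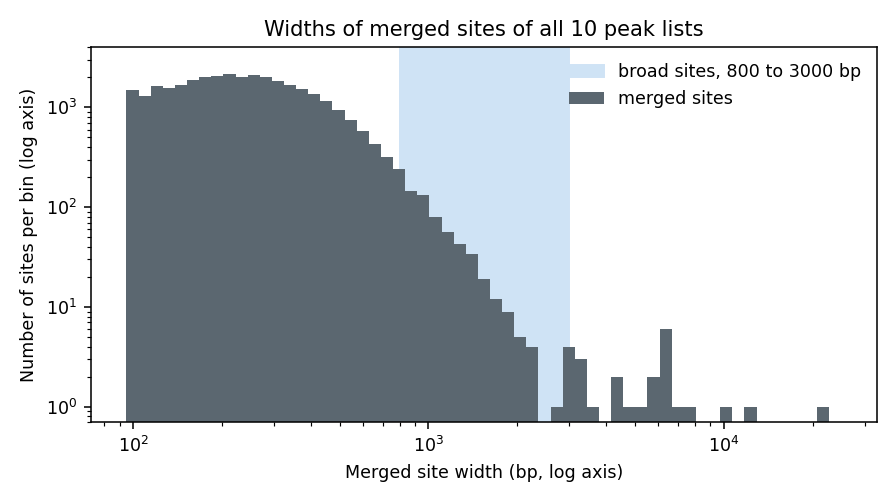
Number of merged sites (vertical, log axis) by merged width in bp (horizontal, log axis) over all 33382 sites, with the range of broad sites shaded. Broad sites form the tail of a continuous distribution, which runs on past 3000 bp with 22 wider sites.

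Most broad sites were open in every group, and what differed was how much of them was called. Peaks were called in all 10 lists at 561 broad sites (86.3%), against 27.3% of the other sites, and 10 were called in no more than 2 lists. A single peak of at least 800 bp occurred in some list at 510 sites (78.5%). The other 140 reached their width only by the merging of overlapping peaks of different lists. Covered length, meaning the bases of a site that lie inside the called peaks of a list, was 800 bp or more in all 10 lists at 87 sites and under 800 bp in every list at 128 sites. Breadth was thus a property of the merged lists at these 128 sites and of every list at the 87.

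The number of peaks in a broad site was rarely fixed. In at least 1 list, 447 broad sites (68.8%) held several peaks, against 3.28% of the other sites, and the most that one list placed in a site was 4. A short site has no room for several peaks, so this contrast, like others with the narrower sites, follows in part from the width that chose the sites, and nothing is read from it. Only 4 sites held several peaks in all 10 lists. At 442 sites there was 1 peak in some lists and more in others, either because peaks were joined or because some were not called. Over all lists there were 2034 gaps between neighbouring peaks of a list, with a median of 157 bp (quartiles 123 and 237 bp), a shortest of 81 bp and a longest of 1146 bp. The median gap was 139 to 205 bp in single lists, with both ABA lists at the top (205 and 204.5 bp). Neighbouring summits lay 497 to 546 bp apart in the median of each list.

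Most gaps were not shared by all groups, but those that a pair of groups shared lay mostly at overlapping positions. A gap shared by both lists of a group was present in at least 1 group at 381 broad sites, in 1 group alone at 126 and in all 5 groups at 8. Of the 126, 38 had it only with ABA, 31 only with IAA, 17 only in the dark, 12 only at 8 h and 28 only at 24 h. Between any pair of groups, 52 to 98 sites had such a gap in both, and the gaps overlapped at 73.8% (dark and 24 h) to 89.6% (ABA and dark) of them.

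Broad sites were also higher than the other sites in the median, and they lay closer to other open sites. Height is the number of tags over a peak's summit, solved from the deposited values, and the highest peak in a site was taken. The median was 33 to 38 tags at broad sites in single lists, against 22 to 27 tags at the other sites. Over all sites called in all 10 lists, broad or not, it was 28 to 34 tags. The strongest peak of 518 broad sites (79.7%) was in the top 25% of its list, against 26.6% of the other sites. Of the other sites 27.3% were called in all 10 lists, against 86.3% of broad sites. Both contrasts in height thus also carry how often a site was called. The nearest other site was 802 bp away in the median, against 1828 bp for the other sites. Another broad site lay within 10 kb of 144 of them (22.2%). Chromosomes 1, 2 and 3 held 338 broad sites (52%), against 39.3% of all sites. The share of sites that were broad ran from 1.08% on chromosome 10 to 2.69% on chromosome 1 and 2.77% on chromosome 3.

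A subset of broad sites stood on a high local background. At 32 broad sites (4.92%) the background at the strongest summit was at least 3 times the floor of the list, against 1.01% of the other sites, and 20 of the 22 sites wider than 3000 bp were of this kind. Of the 32, 17 lay on chromosome 12, 13 were within 20 kb of a site wider than 3000 bp, and all were called in all 10 lists. Their heights averaged 28.8 to 163.9 tags over the lists (median 144.9), against 16.8 to 120.8 tags (median 34.7) at the other 618 broad sites. The 2 widest broad sites belong here. The widest, chr1:33582411-33585362, was covered over 2906 to 2951 bp by 1 peak in every list, with 152 to 171 tags. The next, chr12:20610346-20613255, was covered over 2487 to 2897 bp, by 1 peak in the 8 h, 24 h and ABA lists, by 2 in the dark lists and by 3 in the IAA lists. The other broad sites with the highest peaks, chr12:20539295-20540310 and chr12:8538566-8539899, had 149 to 176 and 144 to 169 tags and were likewise covered nearly end to end in all lists, as was chr1:33585503-33587577 (2055 to 2071 bp). High local background moves with these values, and its part in them was not tested.

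Covered length differed little between dark, light and IAA and was much lower with ABA. Broad sites had 486 and 493 kb covered in the dark lists, 531 and 527 kb at 8 h and 502 and 485 kb at 24 h. With ABA it was 369 and 358 kb, and with IAA 480 and 493 kb. Both 8 h lists lay above and both ABA lists below all others. The lists of the other 3 groups overlapped. The number of broad sites with a call was 616 and 620 in the dark, 639 and 638 at 8 h, 631 and 630 at 24 h, 590 and 588 with ABA and 622 and 627 with IAA. In a site that was called, the median covered length was 580.5 and 569 bp with ABA and 763 and 780 bp with IAA, against 749 and 721.5 bp at 24 h. It was 773.5 and 773 bp in the dark and 776 and 774.5 bp at 8 h.

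Set beside all other sites, the order of the groups was not the same. Covered length is tied to the width that chose the broad sites. At the other sites it also follows the number of sites called, since 27.3% of them were called in all 10 lists, against 86.3%. In a called other site, the median covered length was 200.5 bp in the dark and 206 bp at 8 h. Nothing is read from the distance between the 2 ratios of a comparison. The ratio of covered length at 8 h to that in the dark was 1.08 at broad sites, against 0.839 at all other sites. From 8 h to 24 h it was 0.934 at broad sites and 0.924 elsewhere, and for 24 h over dark 1.01 and 0.776. For ABA over 24 h it was 0.737 at broad sites, against 0.657 elsewhere, and for IAA over 24 h 0.985, against 1.25. The values at 24 h over dark and at IAA over 24 h lay too near 1 to give a direction: they became 0.978 and 1.03 with a lower limit of 600 bp. The lists differed in length, and with all lists cut to equal length the ratios at broad sites were 1.14 for 8 h over dark, 0.802 for ABA over 24 h and 0.943 for IAA over 24 h.

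In the lists as deposited, peaks per called broad site were fewest at 8 h and most with IAA, but this order depended on the setting. There were 1.31 and 1.36 peaks per site in the dark, 1.26 and 1.25 at 8 h and 1.33 and 1.33 at 24 h. ABA lists had 1.32 and 1.32 and IAA lists 1.43 and 1.36. The share of called broad sites with several peaks ran from 23.4% in an 8 h list to 36.7% in an IAA list, against 0.926% to 1.74% at the other sites. The groups next to each other in this order, dark, 24 h and ABA, differed by less than the 2 dark lists did. The difference between IAA and 8 h was 0.141 peaks per site, and it was 0.0823 with all lists cut to the length of the shortest. With these equal lists ABA had the most peaks per site, at 1.30, against 1.19 with IAA, 1.15 at 24 h, 1.14 in the dark and 1.10 at 8 h. With peaks of −log10 q 5 or more only, ABA had the fewest, at 1.16, beside 1.17 at 8 h.

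**Figure D2:**
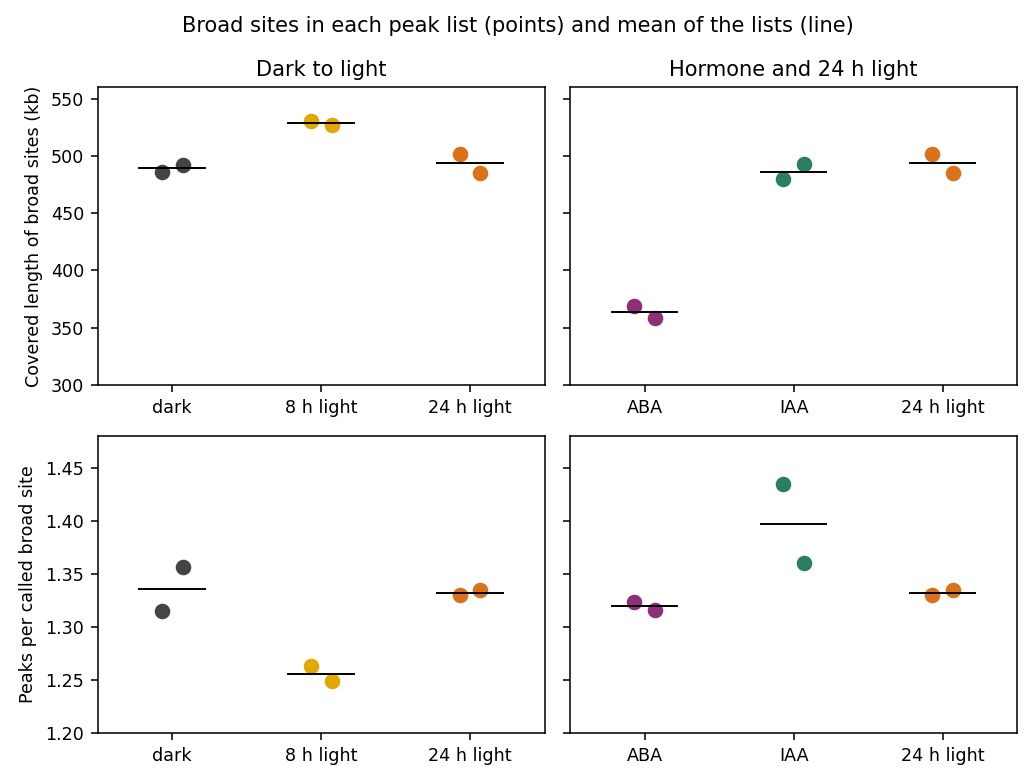
Covered length of the 650 broad sites in kb (top) and peaks per called broad site (bottom) in each list (points) and their mean (line), for dark, 8 h and 24 h (left) and for ABA, IAA and 24 h (right); the vertical axes do not start at 0. The ABA lists lie at 358 to 369 kb and all others at 480 to 531 kb.

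Changes at single sites were counted with rules that both lists of each group had to meet. A broad site called in all 4 lists was widened when each list of the later or treated group covered at least 100 bp more of it than each list of the other, and narrowed in the converse case. Light or hormone split a site when a peak in each list of the group it was set against was overlapped by several of its own peaks in each list, and fused it in the converse case. Gained sites had a peak in each list of the later or treated group and in no list of the other, and lost sites the converse. The same rules were run over all sites as background. Since broad sites were chosen by the width of these very peaks, and a change of 100 bp needs a long site, nothing is read from the distance between the 2 shares. Intervals are 95% Wilson intervals and cover counting error only.

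For 8 h of light against dark, more broad sites were counted as widened than narrowed, and more as fused than split. Of 608 broad sites called in the 4 lists, 156 were widened (25.7%, interval 22.3% to 29.3%, background 6.02%) and 114 were narrowed (18.8%, interval 15.8% to 22.0%, background 8.67%). Peaks were fused at 72 sites (11.8%, background 0.971%) and split at 35 (5.76%, background 0.514%). Fused and widened sites overlapped: 49 sites were both, which is 49 of the 72 fused and of the 156 widened. Light at 8 h gained 23 of 645 broad sites (3.57%, background 7.12%) and lost 3 (0.465%, background 19.4%). The widened share of all widened and narrowed sites was 57.8%, and it was 51.5% with a lower limit of 600 bp. With lists of equal length it was 56.4% (interval 49.7% to 62.9%). Over all sites narrowing prevailed, with 1366 narrowed and 949 widened. Peaks at 8 h helped to choose the broad sites, and 8 h was the widest group at 201 of them. Nothing is therefore read from the direction of these counts. Without the first 8 h list 6 sites were lost, and without the second 53 were split.

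The largest widening at 8 h was at chr4:32847278-32849018. It was covered over 1734 and 1405 bp at 8 h, against 121 and 164 bp in the dark, with 28 and 29 tags against 18 and 19 tags. At 24 h it was covered over 735 and 610 bp in 3 peaks, and it had no peak with ABA. The next, chr4:29570169-29572054, was a single peak over 1886 and 1882 bp at 8 h, against 539 and 799 bp in the dark. Heights at both sites were 18 to 32 tags in these lists, where a call at the floor of the background needed 13 and 14 tags at 8 h and 11 tags in the dark. Divided by relative library size, a call needed 19.2 and 19.8 at 8 h, against 21.3 and 20.6 in the dark. The site with the most peaks joined, chr3:16300886-16302973, was 1 peak of 2056 and 1905 bp at 8 h, against 4 and 3 peaks with 1492 and 1660 bp in the dark.

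At chr5:24322311-24323980, the largest narrowing at 8 h, 514 and 539 bp were covered at 8 h, against 1415 and 1555 bp in the dark, while the heights were 33 and 34 tags against 32 and 35 tags. At chr8:23717041-23718191, 155 and 161 bp were covered at 8 h, against 1151 and 916 bp in the dark, at 24 and 25 tags against 27 in both dark lists. In tags as counted these heights were similar, while the relative library size averaged 0.692 at 8 h, against 0.525 in the dark. The split site with the largest change, chr3:30856200-30857918, had 2 and 3 peaks at 8 h, against 1 peak in each dark list, over 1431 and 1312 bp against 1584 and 1577 bp. The strongest gained site, chr11:12122337-12123511, had 107 tags in both 8 h lists over 1159 and 1154 bp and no peak in the dark. The strongest lost site, chr2:5627438-5628843, had no peak at 8 h and 29 and 31 tags over 1406 and 1241 bp in the dark.

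From 8 h to 24 h the counts ran the other way. Of 622 broad sites, 96 were widened at 24 h against 8 h (15.4%, interval 12.8% to 18.5%, background 4.61%) and 142 were narrowed (22.8%, interval 19.7% to 26.3%, background 7.02%). Peaks were split at 57 (9.16%, background 0.696%) and fused at 28 (4.50%, background 0.494%). Of the 57 split sites, 41 were also narrowed, out of the 142 narrowed. Gains numbered 3 of 644 (0.466%, background 8.2%) and losses 11 (1.71%, background 12.7%), and this order did not hold with lists of equal length, at 18 gained and 17 lost. Without the first 8 h list 6 sites were gained, and without the second 44 were fused.

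Between 8 h and 24 h, chr3:9679046-9681295 narrowed most. It was covered over 1163 and 1211 bp at 24 h, against 2131 bp in both 8 h lists, and its height was 31 and 30 tags against 47 and 47 tags. The next, chr2:24939085-24940866, was covered over 655 and 689 bp at 24 h, against 1584 and 1640 bp at 8 h, with 27 and 29 against 30 and 31 tags. At chr8:28269417-28271714, 3 and 4 peaks at 24 h stood against 1 peak at 8 h, over 1403 and 1208 bp against 2207 and 2192 bp. The first of these lost sequence at both ends, and the last was broken into several peaks.

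Widening at 24 h was led by chr5:18105878-18107089, covered over 1040 and 919 bp at 24 h, against 266 and 249 bp at 8 h, and by chr6:17349100-17350161, covered over 839 and 930 bp at 24 h, against 413 and 221 bp at 8 h. The first of these is among the 32 sites with a high local background. The fused site chr8:1196120-1197127 had 1 peak at 24 h, against 3 at 8 h, over 385 and 430 bp against 575 and 561 bp. The peak at 24 h did not reach the first of the 8 h peaks, which had no counterpart at 24 h. Fewer peaks did not always mean more covered length. The strongest gained site was chr1:41971554-41972770, with 27 tags in both 24 h lists, and the strongest lost one was chr3:26960248-26961943, with 49 tags in both 8 h lists and no peak in any list of another group.

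Over the whole interval, 24 h of light against dark, both directions were about as frequent. Of 608 broad sites, 110 were widened (18.1%, interval 15.2% to 21.3%, background 4.28%) and 125 narrowed (20.6%, interval 17.5% to 24.0%, background 8.97%). Peaks were split at 47 (7.73%, background 0.542%) and fused at 49 (8.06%, background 0.648%). Gains numbered 17 of 638 (2.66%, background 4.8%) and losses 4 (0.627%, background 21%). The widened sites chr1:25700749-25701916 and chr2:29724633-29726470 were covered over 1046 and 1106 bp and over 1304 and 1082 bp at 24 h, against 195 and 213 bp and 192 and 538 bp in the dark. Both were about as wide at 8 h (951 to 1345 bp). The narrowed site chr8:8811905-8813048 was covered over 191 and 241 bp at 24 h, against 1135 and 1144 bp in the dark, and chr3:9679046-9681295, wide at 8 h, over 1163 and 1211 bp against 2109 and 2101 bp.

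ABA narrowed broad sites far more often than it widened them. Of 578 broad sites called in all 4 lists, 309 were narrowed against 24 h (53.5%, interval 49.4% to 57.5%, background 17.3%) and 22 widened (3.81%, interval 2.53% to 5.70%, background 2.73%). Narrowed sites averaged 476 bp of covered length with ABA, against 832 bp at 24 h. The ABA lists had fewer peaks than the 24 h lists, and with all lists cut to equal length 242 sites were narrowed and 34 widened. With a common relative height the counts were 308 and 23, and without the sites of high background 306 and 21. All these settings drop whole peaks or sites and leave the edges of kept peaks as called. The common height kept 198367 of 200537 peaks, so its counts could hardly differ. Both ABA lists needed 16 tags for a call at the floor of the background, against 13 and 14 tags at 24 h. Divided by relative library size the order was the reverse, at 17.2 and 18.0 with ABA, against 18.7 and 19.8 at 24 h. Whether the limit of a call trimmed peak edges was not tested. ABA lost 47 of 640 broad sites (7.34%, background 27.9%) and gained 8 (1.25%, background 5.26%), but 22 and 21 with lists of equal length.

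Peaks were split with ABA at 70 broad sites (12.1%, background 1.16%) and fused at 16 (2.77%, background 0.337%). Of the 70 split sites 57 were also narrowed, out of the 309 narrowed. Split is defined here by peaks of ABA that lie under one peak of 24 h. By the number of peaks in the site alone, 66 sites had more peaks with ABA and 65 had fewer. The excess of split sites was thus not an excess of peaks.

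Named sites show both forms of narrowing with ABA. At chr3:16300886-16302973, 124 and 224 bp were covered with ABA, against 1380 and 1390 bp at 24 h, and its heights were 32 and 32 tags against 38 and 39 tags. At chr3:8858833-8860089, a single peak covered 123 and 134 bp with ABA, against 1180 and 1188 bp at 24 h, and all lists of the other groups covered 982 to 1098 bp. Its height was 27 tags in both ABA lists, against 37 and 34 tags at 24 h. ABA needed 16 tags for a call at the floor of the background, against 13 and 14 tags at 24 h, but fewer when divided by relative library size. The split site chr5:19331347-19333489 had 3 peaks in both ABA lists over 1286 and 1258 bp, against 1 and 2 peaks over 2013 and 1862 bp at 24 h. At chr1:25700749-25701916 no peak was left with ABA, against 32 and 34 tags at 24 h.

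A few broad sites went against this with ABA. The largest widening was at chr6:1468130-1469661, covered over 1532 and 1527 bp with ABA, against 413 and 420 bp at 24 h, with 54 and 53 tags against 33 and 35 tags. Its local background was solved as 2.99975 times the floor. It thus stood at the limit of 3 for high local background, though it was not counted among the 32 sites. At chr11:27189630-27190463, 773 and 774 bp were covered with ABA, against 161 and 165 bp at 24 h. The strongest gained site, chr2:27933060-27934315, was covered over 1255 and 1247 bp with ABA at 80 and 75 tags and had no peak at 24 h. It had no peak with IAA or in the dark either, and 1 of 2 lists at 8 h had a peak of 121 bp with 17 tags there.

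IAA changed broad sites in both directions, and split more of them than it fused. Of 615 broad sites, 109 were widened against 24 h (17.7%, interval 14.9% to 20.9%, background 8.28%) and 93 narrowed (15.1%, interval 12.5% to 18.2%, background 3.31%). The majority depended on the limits: 43.3% of changed sites were widened with a lower limit of 1000 bp, 62.3% with 600 bp, and 48.4% to 57.7% without single lists. Peaks were split at 63 sites (10.2%, background 0.879%) and fused at 28 (4.55%, background 0.443%). Without the second IAA list 95 sites were split, and without the first or the second 24 h list 50 and 46 were fused. The first IAA list had more peaks per site than the second. IAA gained 4 of 637 broad sites (0.628%, background 16.3%) and lost 10 (1.57%, background 4.74%).

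Sites with a high local background were unevenly spread over these calls. They were 32 of the 615 broad sites tested with IAA. They made up 14 of the 93 sites narrowed with IAA and 12 of the 63 split, and none of the 109 widened or the 28 fused. At that share, none among 28 says little. High-background sites outside the broad set were not set beside these counts. In the same 32 sites, 12 were widened and 10 fused at 8 h against dark, and none was narrowed or split. Peaks per site over these 32 sites averaged 1.69 with IAA and 1.22 with ABA, against 1.16 at 24 h, and 1.47 in the dark and 1.09 at 8 h. At the other 618 broad sites, IAA had 1.38 and ABA 1.33, against 1.34 at 24 h. The counts without the 32 sites were 109 widened and 79 narrowed, and 51 split and 28 fused, with IAA.

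With IAA the largest widening was at chr1:41971554-41972770, covered over 1217 and 1212 bp with IAA, against 463 bp in both 24 h lists, and with no peak at 8 h or with ABA. At chr6:10096208-10097173 a single peak covered 942 and 940 bp with IAA, against 2 peaks with 373 and 387 bp at 24 h. The largest narrowing was at chr11:7661701-7663125, covered over 304 bp in both IAA lists, against 1365 and 1363 bp at 24 h, with 32 and 31 tags against 42 and 40 tags. The site chr3:16300886-16302973, narrow with ABA, was narrow with IAA as well, at 441 and 338 bp against 1380 and 1390 bp at 24 h. The fused site chr3:21391602-21393068 had 2 and 1 peaks with IAA, against 3 at 24 h. The strongest lost site, chr3:19245351-19248198, had no peak with IAA, against 2816 and 2817 bp at 24 h, and the strongest gained one, chr2:5627438-5628843, had 26 and 27 tags with IAA and no peak at 24 h.

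**Figure D3:**
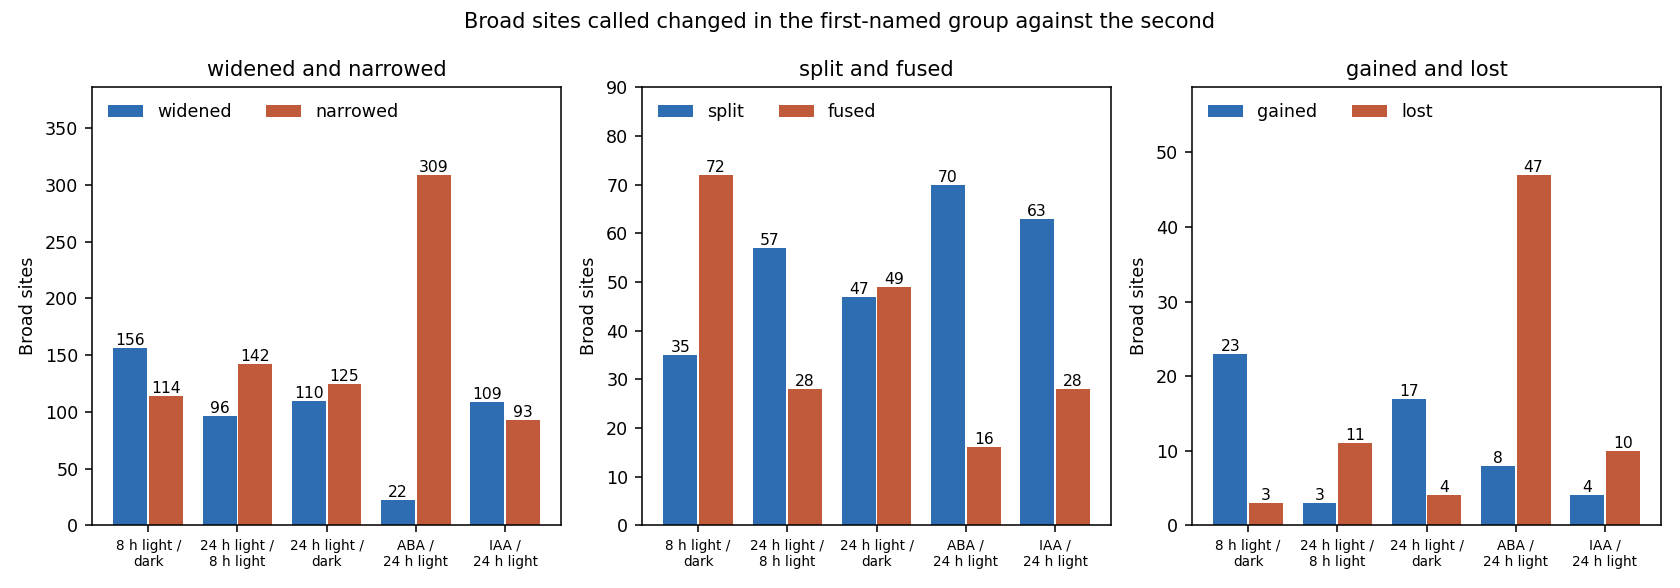
Number of broad sites (vertical) widened or narrowed (left), split or fused (middle) and gained or lost (right) in the first-named group against the second. ABA stands apart with 309 narrowed and 22 widened sites, and 8 h against dark is the comparison with clearly more fused (72) than split sites (35).

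**Figure D4:**
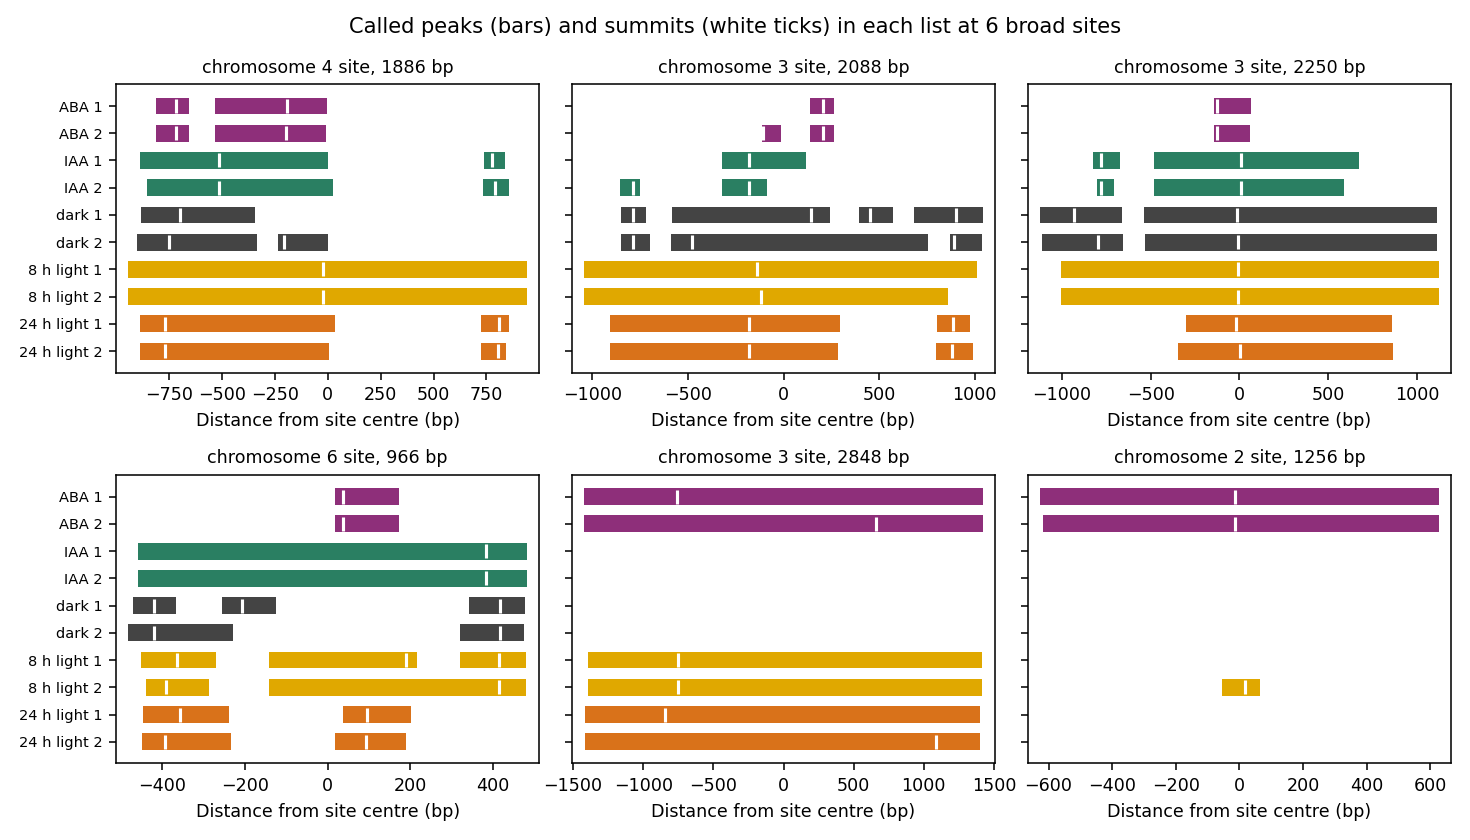
Called peaks (bars) and their summits (white ticks) in each list at 6 broad sites, by distance from the site centre in bp, with ABA, IAA, dark, 8 h and 24 h from top to bottom. The upper sites are widest at 8 h (chromosome 4, 1886 bp, and chromosome 3, 2088 and 2250 bp). The last of these is nearly as wide in the dark, at 2109 and 2101 bp against 2131 bp at 8 h. The lower ones are widest with IAA (chromosome 6, 966 bp), absent in dark and IAA (chromosome 3, 2848 bp), and open almost only with ABA (chromosome 2, 1256 bp).

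By a relative rule, each list of one group had to cover more than each of the other by at least 25% of the mean. The limit of change thus scaled with covered length. At 8 h against dark, 100 broad sites were then widened (16.4%, background 9.99%) and 65 narrowed (10.7%, background 16.2%). At 24 h against 8 h, 48 were widened (7.72%, background 8.56%) and 78 narrowed (12.5%, background 12.3%), and at 24 h against dark 62 were widened (10.2%, background 6.72%) and 79 narrowed (13.0%, background 17%). ABA narrowed 260 against 24 h (45.0%, background 27.8%) and widened 9 (1.56%, background 5.78%), and IAA widened 67 (10.9%, background 16.6%) and narrowed 56 (9.11%, background 5.33%). The order of widened and narrowed broad sites in each of the 5 comparisons was the one found with 100 bp. Broad sites were still chosen by the width of these peaks, so nothing is read from the distance to the background shares here either.

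By the definition used here, most sequence was gained and lost at the outer edges of broad sites. Sequence called in both lists of one group and neither of the other was counted as edge where it lay beyond the outermost peaks of the other group, and as inside where it lay between them. Inside sequence thus needs several peaks of the other group in the site. In single lists 23.4% to 36.7% of called broad sites had these, so most sites could change only at edges. Nothing is read from the majority at edges. At 8 h against dark, 40.8 kb were gained at edges and 20.3 kb inside, and 34.8 and 11.3 kb were lost. At 24 h against 8 h, 29.2 kb were gained at edges and 8.86 kb inside, and 38.1 and 20.7 kb were lost. For 24 h against dark the gains were 33.7 and 14.6 kb and the losses 36.0 and 17.7 kb. The inner share was larger among gains at 8 h against dark and larger among losses in the other comparisons but ABA.

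With ABA, 89.4 kb were lost at edges and 27.7 kb inside, against gains of 13.8 and 5.62 kb. With IAA, 28.9 kb were lost at edges and 18.4 kb inside, and 34.3 and 11.98 kb were gained. The edges thus took 76.4% of the loss with ABA and 61.1% of the loss with IAA, whereas gains lay at edges to 71.0% and 74.1%. These shares depend on how many sites held several peaks, and nothing is read from their contrast. Gains minus losses of such sequence, edges and inside together, came to -97.7 kb with ABA and -1.11 kb with IAA. This balance leaves out sequence called in only 1 list of a group.

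**Figure D5:**
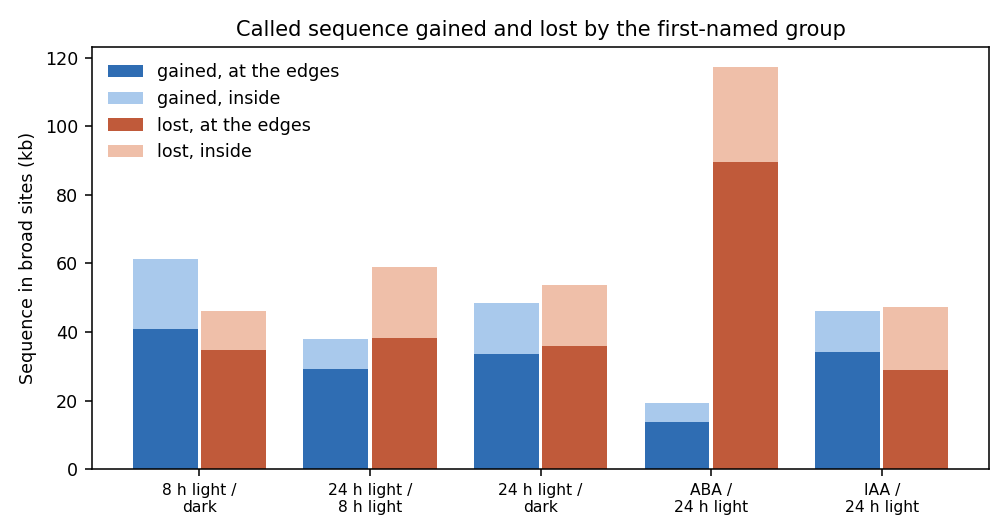
Called sequence in broad sites in kb that the first-named group gained (blue) or lost (red) against the second, at the outer edges (dark shade) and inside (light shade). The loss with ABA, 89.4 kb at edges and 27.7 kb inside, exceeds every other bar.

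Height moved with covered length, but weakly. Heights were divided by the median height of each list over the 9508 sites called in all 10 lists. Across sites called in the 4 lists, Spearman's rho between the change in height and the change in covered length was 0.479 for 8 h against dark (608 sites), 0.386 for 24 h against 8 h (622) and 0.359 for 24 h against dark (608). It was 0.229 for ABA against 24 h (578) and 0.339 for IAA against 24 h (615). Both measures come from the same peaks, and sites of one list share its depth. Widened sites at 8 h were higher than in the dark at 132 of 156, with a median log2 ratio of 0.25, and narrowed ones at 37 of 114, with a median of -0.11. The sign depends on the scale: divided by relative library size instead, the medians were -0.08 and -0.44.

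Narrowing with ABA came with a small change of height on the first scale. The 309 narrowed sites had a median log2 height ratio of -0.10, with 111 higher with ABA than at 24 h, while their median log2 ratio of covered length was -0.78. The 247 sites neither widened nor narrowed had -0.02 in height. On the scale of library size both medians were lower, at -0.59 and -0.52, and the order of narrowed and other sites was the same. The 93 sites narrowed with IAA had a median log2 height ratio of -0.27, or -0.11 on the scale of library size.

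Over the 5 groups, each broad site was also assigned to the group in which it was covered widest. This was ABA at 36 sites, IAA at 149, dark at 152, 8 h at 201 and 24 h at 110, with ties at 2. The narrowest group was ABA at 386 sites, IAA at 71, dark at 67, 8 h at 63 and 24 h at 29, with ties at 34. Sites narrowest at 24 h were thus the fewest, and ABA was the narrowest at 59.4% of broad sites.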

How the data were processed

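ATAC-seq was done on nuclei of whole rice seedlings, and 1 peak list per labelled sample was analysed, 10 in all. The authors trimmed the reads, aligned them with Bowtie2 (version 2.3.2) to the japonica genome MSU7.0, filtered them with SAMtools (version 1.9) and called peaks with MACS2, whose version, settings and control are not given in the sources used here. No shift for the Tn5 cut is described. The seedlings were indica, so sequence that differs between the subspecies can lack reads. Each deposited row gives a peak's position and summit, a score, a fold enrichment, and p-values and q-values as −log10. The fold was taken as the summit pileup plus 1 over the background plus 1. The deposited score, 10 times the −log10 q-value, was not used.

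Sites, covered length and calls were computed from peak positions as described beside the results, with Python 3.11.15, numpy 2.4.6, pandas 2.3.3 and scipy 1.17.1. From the deposited fold and −log10 p-value, a whole-number height and its local background were solved for all 200537 peaks. The solved values gave back the −log10 p-value to within 0.000203. The floor of the local background, 6 units in every list, gave the relative library size. Absolute depth is unknown. The code for calls and heights was tested on simulated lists with planted changes, without counting noise. No per-sample column was left unmapped.

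Named sites were taken by size of change: per comparison the 2 widened and the 2 narrowed sites with the largest difference, the split and the fused site with the largest difference in peaks and the strongest gained and lost site, and over all lists the 3 widest, highest and most covered. The members, rules and lists were chosen with earlier results of these data known. Genes and sequence at the sites were not analysed here. Alternatives were lists of equal length, peaks of −log10 q 5 or more only, a common relative height for the calls, other width limits, other limits of change, a merge over 100 bp, splits by the number of peaks, each list left out and, chosen after seeing the data, the common relative height for covered length and peaks per site, and the sites without high background.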

Additional observations from a re-analysis of the deposited data

Results flagged for a closer look

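ABA and IAA stood on opposite sides of 24 h of light for a pair of measures of broad sites. The median covered length of a called broad site averaged 574.75 bp over the ABA lists and 771.5 bp over the IAA lists, against 735.25 bp at 24 h, with both ABA lists below and both IAA lists above both 24 h lists. Peaks per called broad site averaged 1.32003 with ABA and 1.39727 with IAA, against 1.33228 at 24 h, in the same order. The 2 lists of a group count as 1 sample, and these differences were not tested. The order for peaks per site did not hold in every setting: with lists of equal length ABA (1.30) and IAA (1.19) were both above 24 h (1.15), and without the first 24 h list ABA (1.328) was above 24 h (1.326). For ABA the difference in peaks per site was smaller than that between the IAA lists (1.43 and 1.36). For covered length the place of IAA also depended on the measure and the limit. The mean per called broad site was 779 bp with IAA, against 783 bp at 24 h. With a lower limit of 1000 bp the median was 920 bp with IAA, against 945.5 bp at 24 h.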

How the results depend on the processing

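The alternatives left 135 of 173 recomputed values within the spread of the lists or the interval of the share. This tally is no measure of robustness. The lists of a group were not counted as independent samples, so their spread is no replicate error. The tally includes the common relative height, which kept 198367 of 200537 peaks, so its values could hardly differ. It also includes the number of broad sites with stricter peaks and with equal lists, where sites were not merged anew and stayed at 650. Alternatives that drop peaks leave the edges of the kept peaks as called. There were 1827 broad sites at a lower limit of 600 bp and 279 at 1000 bp. The ratio of covered length for ABA over 24 h (0.737) was 0.669 with −log10 q of at least 5, 0.802 with lists of equal length, 0.756 at 1000 bp, 0.792 with no upper limit, 0.677 with sites merged from the stricter peaks and 0.713 without high background. For 8 h over dark (1.08) it was 1.14 with equal lists, 1.03 at 600 bp and 1.12 at 1000 bp, for 24 h over 8 h (0.934) it was 0.909 at 1000 bp, for 24 h over dark (1.01) it was 1.06 with equal lists and 0.978 at 600 bp, and for IAA over 24 h (0.985) it was 0.943 with equal lists, 1.03 at 600 bp and 0.949 at 1000 bp. The excess of peaks per site with IAA over 8 h (0.141) was 0.0823 with equal lists, 0.0776 at 600 bp, 0.277 at 1000 bp, 0.193 with no upper limit and 0.117 without high background.

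The widened share of changed sites was 51.5% at 600 bp for 8 h against dark (57.8%). For ABA (6.65%) it was 9.96% with stricter peaks, 12.3% with equal lists, 4.07% at 200 bp of change and 3.35% at 25% of change, and for IAA (54.0%) 62.3% at 600 bp and 43.3% at 1000 bp. The split share for ABA (81.4%) was 66.7% with stricter peaks, 88.4% with equal lists and 50.4% by the number of peaks, and for IAA (69.2%) 78.9% with equal lists. The gained share for 8 h against dark (88.5%) was 68.9% with stricter peaks and 70.2% at 600 bp, and for ABA (14.5%) 48.8% with equal lists. For 24 h against 8 h (21.4%) it was 50% with stricter peaks and turned to 51.4% with equal lists. The cause was not tested.

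Leaving out each list gave ratios of covered length of 0.721 to 0.754 for ABA over 24 h, 0.966 to 1.01 for IAA over 24 h, 0.986 to 1.02 for 24 h over dark, 0.915 to 0.947 for 24 h over 8 h and 1.06 to 1.10 for 8 h over dark. The excess of peaks with IAA ranged over 0.106 to 0.171. The split share for IAA ranged over 58.3% to 72.5%. No paired analysis was possible because the results come from no test. Genomic setting and motifs were not run. Absolute depth is unknown, and what it limits was not measured.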

Other observations

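A few broad sites were open end to end in one group and closed in another. Sites covered over at least 90% of their width in both lists of a group and with no peak in both lists of another numbered 28, and they were picked after their values were seen. By the group that was covered end to end, 10 were of ABA, 3 of IAA, 4 of dark, 14 of 8 h and 2 of 24 h, some in several groups. The same count was not made over the other sites. The 28 and their spread over the groups thus have no background share, and nothing is read from them about broad sites.

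The 10 sites open end to end with ABA had 38 to 166 tags in the ABA lists (median 84.5), where the median over broad sites was 33 tags in both lists. None of the 10 had a peak in the dark, and 8 had none with IAA, 2 none at 8 h and 4 none at 24 h. At the 6 that were called at 24 h, both ABA lists were higher than both 24 h lists, by 1.42 to 3.39 times, against 1.30 times for the relative library size. At chr3:19245351-19248198 the ABA lists had 166 and 164 tags, against 99 and 102 tags at 24 h, the 8 h lists had 96 and 98, and dark and IAA had no peak over the 2848 bp. At chr11:2632514-2633492 there were 102 and 97 tags with ABA, against 33 and 35 tags at 24 h, and again none in dark and IAA. At chr3:5858687-5859616 (68 and 67 tags) and chr6:5300192-5301131 (41 and 38 tags) ABA alone had peaks.

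Of the 14 sites open end to end at 8 h, 4 had no peak in any other group. They include the neighbours chr3:26956383-26959090 and chr3:26960248-26961943, separated by 1157 bp. The first had 38 and 33 tags over 2698 and 2480 bp at 8 h, and the second 49 and 49 tags over 1653 and 1696 bp. The others were chr3:12630406-12631323 (35 and 38 tags) and chr9:20885047-20886028 (26 and 28 tags). All 4 sites open end to end in the dark that are in this set had no peak with ABA, at 19 to 31 tags in the dark lists. Whether these all-or-none sites recur in other plants cannot be told from 1 sample per group.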
